A study of Cucumis melo with 8 samples.

Results

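The copper miRNAs cme-miR397, cme-miR398a, cme-miR398b and cme-miR408, written here without the species prefix, were followed through fruit development in Hami melon (Cucumis melo). They were taken from the processed table by name, and these 4 sequences are 4 of the 71 distinct mature miRNA sequences listed there. The samples were flesh mesocarp of the variety ‘Flavor No. 4’, with no treatment and no genetic change in any group. Small RNA was sequenced at 10 days after flowering (10DAF, young fruit), 20DAF (expanding fruit), 30DAF (premature fruit) and 40DAF (mature fruit), with 2 libraries per stage and 8 in all. Flowers were pollinated by hand in a greenhouse, and 30DAF and 40DAF are the stages at which the fruit ripens. Each stage had 1 library in the second batch, made from a single fruit and read paired-end on an Illumina NextSeq, and 1 library in the first batch, made from pooled RNA of 3 fruits from different plants and read single-end on an Illumina GAIIx. The batches were collected in different years, so season, sequencer and number of fruits cannot be told apart. The table holds no marker of the mesocarp against which the tissue label could be checked.

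Plant miRNAs guide the cleavage or silencing of mRNAs with a matching site. The copper miRNAs are known as a group because their targets encode proteins that bind copper. In Arabidopsis they are switched on by the transcription factor SPL7 when copper is short, which lowers the use of copper by dispensable proteins and leaves it for essential ones such as plastocyanin. miR397 targets laccases, copper oxidases of the cell wall that act in lignin formation. miR398 targets copper/zinc superoxide dismutases, which remove superoxide, and the copper chaperone that loads them. miR408 targets plantacyanin, a small blue copper protein, and some laccases. These roles are background from Arabidopsis, and neither copper nor the target mRNAs were measured in these libraries.

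The mature sequences show how the members relate to each other. They are written 5′ to 3′ with the seed, bases 2 to 8, in capitals.
miR397: uCAUUGAGugcagcguugaug
miR398a: uGUGUUCUcaggucgccccug
miR398b: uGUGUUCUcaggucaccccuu
miR408: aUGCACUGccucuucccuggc
All 4 were 21 nt long. The first base was U in miR397, miR398a and miR398b and A in miR408. miR398a and miR398b had the same seed, and no other sequence of the table shared a seed with any member. Counted from 1 at the 5′ end, miR398a and miR398b differed by the substitutions G15A and G21U and were identical at 19 positions. The authors matched reads with up to 1 mismatch, so a read that carries 1 of these substitutions is 1 mismatch from both, and the values of miR398a and miR398b may share such reads. miR397 and miR408 had no such neighbour. The nearest other sequence of 21 nt differed from miR397 at 10 positions and from miR408 at 13.

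The precursors show from which arm of its hairpin each miRNA comes, with the mature sequence in capitals.
miR397: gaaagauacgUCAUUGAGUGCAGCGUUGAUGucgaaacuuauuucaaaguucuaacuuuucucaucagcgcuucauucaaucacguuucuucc
miR398a: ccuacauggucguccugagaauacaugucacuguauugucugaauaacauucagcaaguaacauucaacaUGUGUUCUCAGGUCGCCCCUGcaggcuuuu
miR398b: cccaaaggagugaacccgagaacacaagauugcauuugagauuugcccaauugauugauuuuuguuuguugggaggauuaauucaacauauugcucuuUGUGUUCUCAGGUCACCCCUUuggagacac
miR408: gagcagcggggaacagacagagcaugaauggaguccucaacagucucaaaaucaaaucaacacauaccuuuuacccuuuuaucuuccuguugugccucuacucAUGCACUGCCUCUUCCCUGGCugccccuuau
miR397 lies at bases 11 to 31 of a precursor of 93 nt, on the 5′ side. The other members lie on the 3′ side, miR398a at bases 71 to 91 of 100 nt, miR398b at bases 99 to 119 of 128 nt and miR408 at bases 104 to 124 of 134 nt. The capitals of miR398a and miR398b differ little, but the rest of their precursors differs in length and sequence.

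Levels are given in TPM, the reads of a sequence relative to a read total for its library, on a scale common to all libraries and not divided by length. The low values of each library were whole multiples of the TPM of 1 read, from which the read numbers were inferred. The totals by which the values had been divided were 105077 to 985271 reads in the second batch and 233130 to 410945 reads in the first. These are far below the clean reads that the study gives for the same libraries, so they are no measure of sequencing depth. Which reads they hold is not stated in the sources used here. The smallest totals were those of the second batch at 30DAF and 40DAF, where 3 reads, taken as the floor, were 28.6 and 22.2 TPM. In the other libraries the floor was 3.04 to 12.9 TPM. The intervals given for single values are exact Poisson intervals at 95%, and they and the floors cover counting error only, since reads that are PCR copies of 1 molecule could not be told from separate molecules.

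The copper miRNAs were of middling or low level in the mesocarp. By mean TPM over the 8 libraries, miR398a ranked 20th of 71 sequences with 181 TPM and miR408 25th with 122 TPM. miR397 ranked 39th with 37.8 TPM and miR398b 44th with 30.2 TPM. The read numbers behind these means were small, with 562 reads of miR398a, 364 of miR408, 104 of miR397 and 43 of miR398b in all libraries together. More than 3 reads were found in 6 libraries for miR398a and miR408, in 5 for miR398b and in 3 for miR397.

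**Figure D1:**
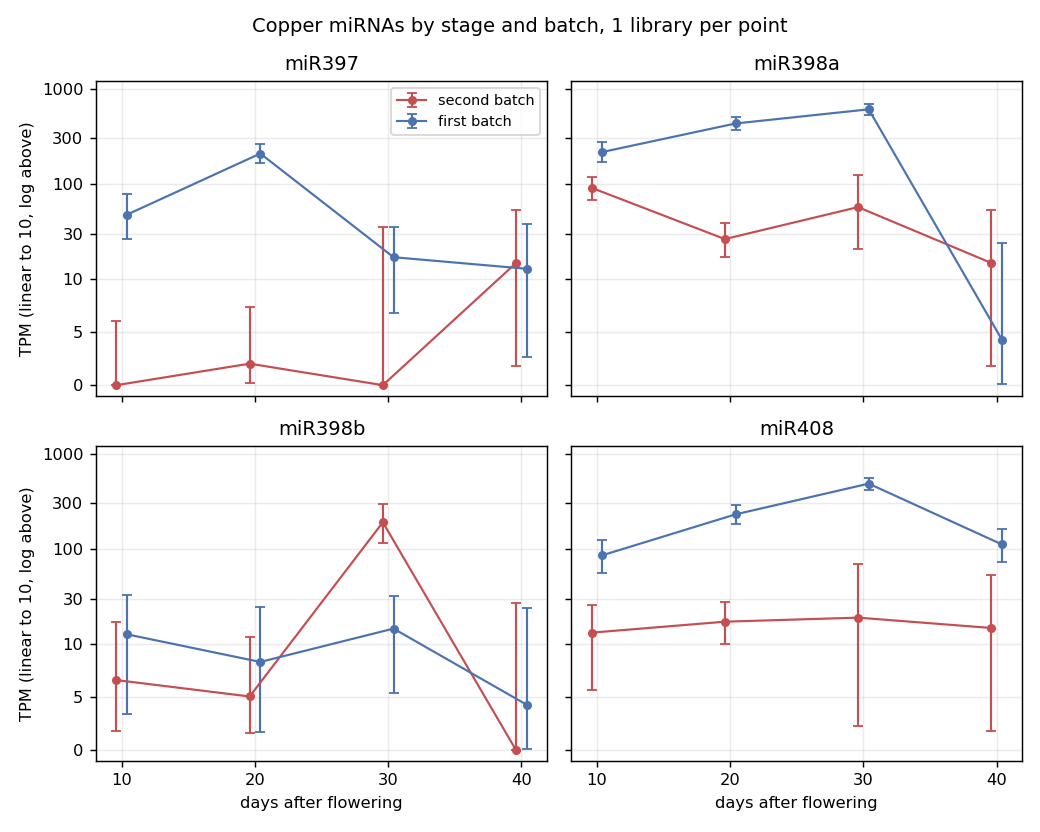
TPM of each copper miRNA (linear up to 10, log above) against days after flowering, with 1 library per point, the second batch in red, the first in blue, and bars for the exact 95% Poisson interval of the reads. miR408 lay between 13.2 and 19.0 TPM in the second batch and between 85.8 and 484 TPM in the first, and miR398b reached 190 TPM in a single library.

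miR397, the laccase regulator, was found above the floor only in the first batch. Its values at 10, 20, 30 and 40DAF were 0, 2.03, 0 and 14.8 TPM in the second batch, with 0, 2, 0 and 2 reads. In the first batch they were 47.7, 208, 17.0 and 12.9 TPM, with 15, 75, 7 and 3 reads. Every second-batch library was at or under its floor, so a course over stages was not detectable there. In the first batch the level at 20DAF was 4.37 times that at 10DAF (95% interval 2.49 to 8.19, counting error only), and the level at 30DAF was 12.2-fold lower than at 20DAF (ratio 0.0818, 0.0318 to 0.177). The peak of miR397 in expanding fruit rested on 1 library of 75 reads.

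miR398a, the first of the miR398 pair, was on average the most abundant member and was low in mature fruit. At 10, 20, 30 and 40DAF it had 91.0, 26.4, 57.1 and 14.8 TPM in the second batch, with 55, 26, 6 and 2 reads. In the first batch it had 216, 430, 606 and 4.29 TPM, with 68, 155, 249 and 1 read. Its lowest value was at 40DAF in both batches, under the floor of each library. In the second batch 40DAF was not separated from 20DAF, with a ratio of 0.562 (0.0646 to 2.24). In the second batch the level at 40DAF was 0.163 times that at 10DAF (0.0192 to 0.617), and in the first batch it was 0.0199 times (0.000496 to 0.114). Against 30DAF the ratio at 40DAF was 0.260 in the second batch (0.0256 to 1.45), which includes no change, and 0.00708 in the first (0.000179 to 0.0398). From 10DAF to 20DAF the batches took different courses. The level at 20DAF was 0.290 times that at 10DAF in the second batch (0.175 to 0.470) but 1.99 times in the first (1.49 to 2.69), a step beyond counting error in both batches and in opposite directions.

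miR398b, which shares its seed with miR398a, was near the floor in all libraries but 1. Its values at 10, 20, 30 and 40DAF were 6.62, 5.07, 190 and 0 TPM in the second batch, with 4, 5, 20 and 0 reads. In the first batch they were 12.7, 8.33, 14.6 and 4.29 TPM, with 4, 3, 6 and 1 read. The level was highest at 30DAF in both batches, but by very different margins. At 30DAF it was 37.5 times that at 20DAF in the second batch (13.7 to 128) and 1.75 times in the first (0.374 to 10.8), which includes no change. The 20 reads at 30DAF in the second batch came from the library with the smallest total. In that library miR398b stood above miR398a, at 190 against 57.1 TPM, whereas in the first-batch library of 30DAF it stood far below it, at 14.6 against 606 TPM.

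miR408, the plantacyanin regulator, was separated by batch more than by stage. At 10, 20, 30 and 40DAF it had 13.2, 17.3, 19.0 and 14.8 TPM in the second batch, with 8, 17, 2 and 2 reads. In the first batch it had 85.8, 230, 484 and 112 TPM, with 27, 83, 199 and 26 reads. The order of the stages was 30, 20, 40 and 10DAF in both batches. In the first batch each step between neighbouring stages was beyond counting error, with ratios of 2.69 for 20DAF over 10DAF (1.72 to 4.32), 2.10 for 30DAF over 20DAF (1.62 to 2.75) and 0.230 for 40DAF over 30DAF (0.147 to 0.348). In the second batch the same ratios were 1.30 (0.533 to 3.49), 1.10 (0.124 to 4.65) and 0.779 (0.0565 to 10.7), and each interval includes no change.

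Together the copper miRNAs were a small part of the TPM of the 71 sequences, and their make-up differed between libraries. Their summed TPM at 10, 20, 30 and 40DAF was 111, 50.7, 266 and 44.5 TPM in the second batch and 362, 877, 1122 and 133 TPM in the first. The sum was highest at 30DAF in both batches and at most 0.154% of the TPM of the 71 sequences in any library. Most of that TPM was of miR159, miR319 and miR396. All other families, the copper miRNAs included, held 6234 to 26247 TPM per library. At 20DAF of the first batch they held 11537 TPM, of which the copper miRNAs were 877 TPM. miR398a made up 82.1%, 52.0%, 21.4% and 33.3% of the sum over the stages of the second batch and 59.6%, 49.1%, 54.0% and 3.23% over those of the first. At 30DAF of the second batch miR398b made up 71.4% of the sum, and at 40DAF of the first batch miR408 made up 83.9%. At 40DAF of the second batch the sum rested on only 6 reads.

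**Figure D2:**
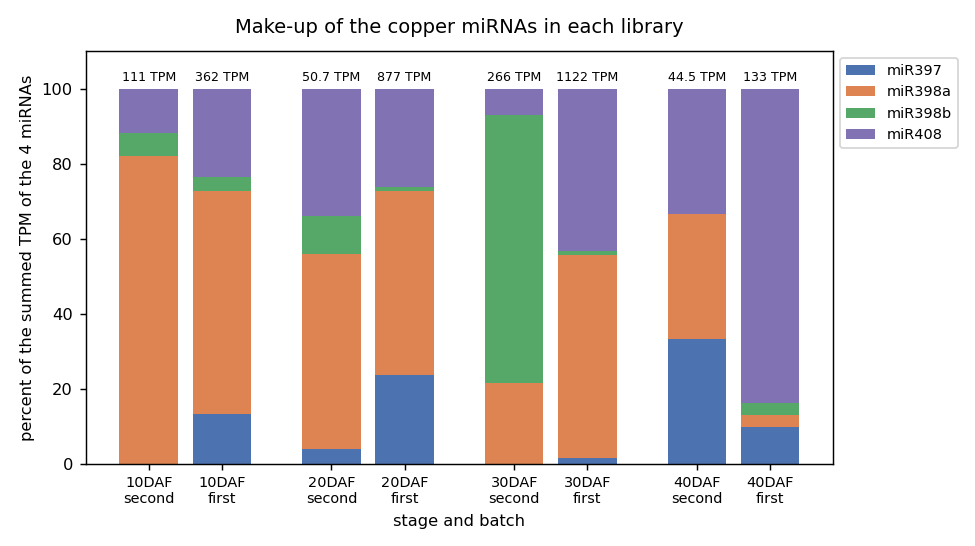
Percent of the summed TPM of the 4 copper miRNAs that each member made up (bars, stacked), by stage and batch, with the summed TPM over each bar. miR398a took 82.1% at 10DAF of the second batch and miR398b 71.4% at 30DAF of the second batch, while miR408 took 83.9% at 40DAF of the first.

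The comparisons of stages asked which miRNAs change as the fruit grows and ripens. Values were compared as log2(TPM + 5) with limma over all 71 sequences, and a fold change on this scale understates the change of low sequences. A pair of stages was called at an unadjusted p under 0.05 with a fold over 1.5, the form of threshold used in the study. With 1 library per batch and stage, the spread between the 2 libraries of a stage includes the batch. With 2 libraries against 2 an exact test cannot come near that threshold, so log2 changes are given with their SE and adjusted p.

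The only calls of members between any pair of stages were of both miR398 sequences, lower in mature than in premature fruit. Neither passed an adjusted p under 0.05 by limma. miR398a averaged 9.56 ± 7.45 TPM at 40DAF and 332 ± 388 TPM at 30DAF (SD, n = 2 each). Its log2 change was -3.84 (SE 1.56, adjusted p = 0.459 by limma). miR398b averaged 2.15 ± 3.03 TPM at 40DAF and 102 ± 124 TPM at 30DAF, with a log2 change of -3.18 (SE 1.14, adjusted p = 0.415 by limma). Both were lower at 40DAF in both batches, yet most of the mean at 30DAF came from the first batch for miR398a and from the second batch for miR398b. In the second batch the fall of miR398a was within counting error (2 against 6 reads, ratio 0.260, interval 0.0256 to 1.45). In the first batch that of miR398b was too (1 against 6 reads, ratio 0.294, interval 0.00639 to 2.42). Each fall was thus beyond counting error in a single batch, the first for miR398a and the second for miR398b. As in any bulk tissue, fewer cells with the miRNA and less of it per cell cannot be told apart.

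These were 2 calls in 24 tests of members, against 52 calls in 426 tests over all sequences (12.2%), a share of members near the background. Between 40DAF and 30DAF alone, 7 of 71 sequences (9.86%) were called, and the median log2 change was -2.18 over the 4 members and -0.06 over all sequences. The adjusted p of limma was 0.259 or higher in all 24 tests of members. With the batch as a block, miR398a was also called lower at 40DAF than at 10DAF (log2 change -3.42, adjusted p = 0.180 by limma, against 0.259 without the block) and than at 20DAF (-3.11, adjusted p = 0.330, against 0.396). Both were also called after median-ratio scaling and after scaling on all families besides miR159, miR319 and miR396. With only the libraries of the stages compared, neither call between 40DAF and 30DAF held, and the single call was miR398a at 40DAF against 10DAF (adjusted p = 0.260 by limma). The call of miR398a between 40DAF and 30DAF was also lost without the library of 10DAF, 30DAF or 40DAF of the first batch or of 10DAF or 40DAF of the second, with log2 changes of -4.39 to -2.19. That of miR398b was kept only without 30DAF of the first batch (log2 change -4.84) or 20DAF of the second (-3.18), and without 30DAF of the second batch its log2 change was -1.52 (adjusted p = 0.741 by limma).

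The other comparisons of stages gave wide intervals. The 22 tests of members that were not called had standard errors of up to 1.89 on the log2 scale. All 4 members were lower at 40DAF than at 20DAF, with a median log2 change of -0.90 against 0 over all sequences, but the individual changes lay between -3.11 and -0.59 and none was called, where 10 of 71 sequences (14.1%) were. The change of miR398b at 30DAF against 20DAF was 2.42 on the log2 scale (SE 1.14, adjusted p = 0.639 by limma). Without 30DAF of the first batch it was 4.08 and called (adjusted p = 0.124 by limma), and without 30DAF of the second batch 0.76 (adjusted p = 0.915). The background share of calls for 30DAF against 20DAF was 5.63%, that for 20DAF against 10DAF 7.04%, that for 30DAF against 10DAF 14.1% and that for 40DAF against 10DAF 22.5%.

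**Figure D3:**
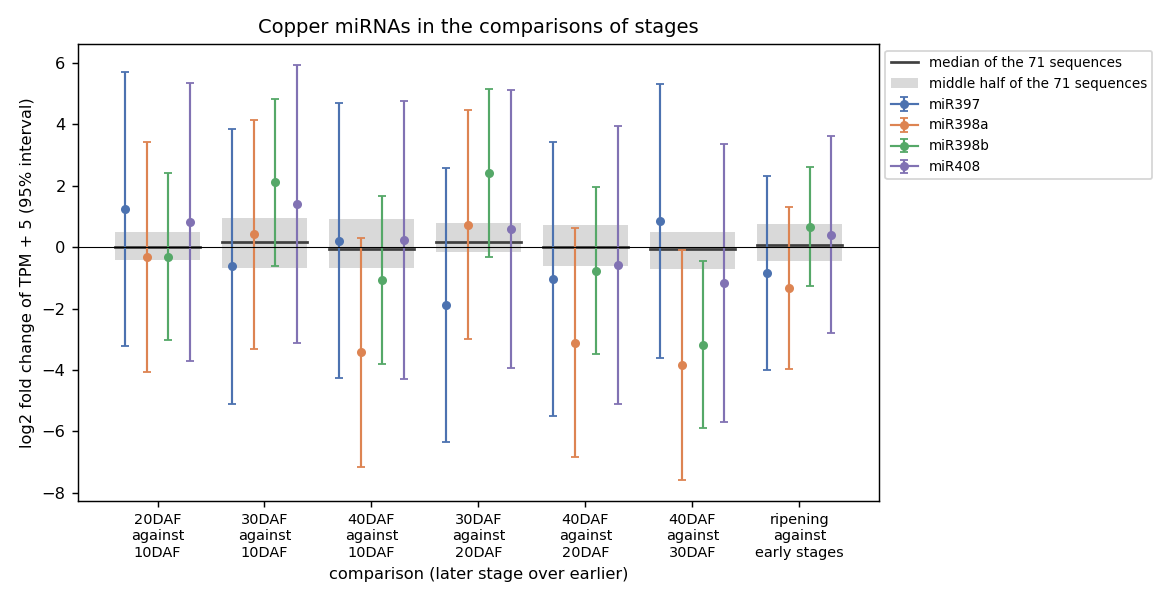
Log2 fold change of TPM + 5 for each member (points, with the 95% interval of limma) in the 6 comparisons of stages and in ripening against early stages, with the median (line) and the middle 50% (grey) of all 71 sequences. The intervals of miR398a and miR398b lie below 0 for 40DAF against 30DAF, at -3.84 and -3.18, and every other interval includes 0.

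Ripening fruit was then set against early fruit, 4 libraries against 4. No member differed in a way that the test could separate from the spread. miR397 averaged 11.2 ± 7.64 TPM in ripening libraries (30DAF and 40DAF) and 64.5 ± 98.3 TPM in early libraries (10DAF and 20DAF). miR398a averaged 171 ± 291 TPM in ripening and 191 ± 178 TPM in early libraries. miR398b averaged 52.3 ± 92.2 TPM in ripening and 8.18 ± 3.30 TPM in early libraries, and miR408 157 ± 222 and 86.7 ± 101 TPM (SD, n = 4 each). Each of these standard deviations for ripening fruit but that of miR397 was larger than its mean, and all members overlapped between the groups. The log2 changes were -0.83 for miR397 (SE 1.32), -1.34 for miR398a (SE 1.10), 0.67 for miR398b (SE 0.80) and 0.41 for miR408 (SE 1.34). The adjusted p values of limma were 0.778, 0.569, 0.715 and 0.879 in the same order, and the two-sided exact permutation p values were 0.657, 0.4, 0.771 and 0.714. Thus 0 of 4 members were called at an adjusted p under 0.05, with 0 also at an unadjusted p under 0.05 and 0 with voom on the recovered reads. Over all sequences 4 of 71 (5.63%) passed the adjusted threshold and 19 (26.8%) the unadjusted one. The median of the members was -0.21, against 0.08 over all sequences.

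The comparison of batches asked how far season, sequencer and pooling carried over to the members. miR408 was lower in the second batch at all 4 stages and the batches did not overlap, with a mean of 16.1 ± 2.56 TPM in the second batch and 228 ± 182 TPM in the first (SD, n = 4 each). The ratio of the second to the first batch at 10, 20, 30 and 40DAF was 0.154, 0.0749, 0.0393 and 0.133, and the highest upper limit of the 95% counting intervals was 0.531. On the log2(TPM + 5) scale, with the stage as a covariate, the difference was -3.16 (SE 0.51, adjusted p = 0.0412 by limma). The two-sided exact permutation p, which did not keep the stages paired, was 0.0286, the smallest that 4 libraries against 4 can give. It was the 1 call of 4 members, where 2 of 71 sequences (2.82%) passed the adjusted threshold and 13 (18.3%) an unadjusted p under 0.05. In 9 of 71 sequences (12.7%) the batches did not overlap. The adjusted call was lost without any 1 of the 8 libraries, with log2 differences of -3.44 to -2.76 and adjusted p values of 0.0674 to 0.323. With the stage as a covariate, leaving out either library of a stage gave the same difference, since the library left there has no partner.

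The other members differed by batch at single stages. miR397 averaged 4.21 ± 7.14 TPM in the second batch and 71.5 ± 92.5 TPM in the first, a log2 difference of -2.58 (SE 0.86, adjusted p = 0.200 by limma, exact permutation p = 0.0571). At 20DAF it was 103-fold lower in the second batch (ratio 0.00975, 0.00116 to 0.0365). miR398a averaged 47.3 ± 34.1 TPM in the second batch and 314 ± 261 TPM in the first, a log2 difference of -1.80 (SE 0.88, adjusted p = 0.340 by limma, exact permutation p = 0.257). It was lower in the second batch at 10, 20 and 30DAF, with ratios of 0.421, 0.0613 and 0.0942, while at 40DAF the ratio of 3.45 had an interval of 0.180 to 204. miR398b averaged 50.5 ± 93.3 TPM in the second batch and 9.98 ± 4.62 TPM in the first, with a log2 difference of 0.35 (SE 0.80, adjusted p = 0.857 by limma, exact permutation p = 0.943). It was 13.0 times as high in the second batch at 30DAF (5.05 to 39.7) and lower in the second batch at the other stages, where each interval includes no difference. The median difference was -2.19 over the members and -0.15 over all sequences. The 71 sequences together summed to 412477 to 506067 TPM in the second batch and 571433 to 883434 TPM in the first. With median-ratio scaling the differences of miR397, miR398a, miR398b and miR408 were -2.36, -1.28, 0.70 and -2.70. Scaled on all families besides miR159, miR319 and miR396 they were -2.72, -1.61, 0.56 and -2.97. The part of the gap in the summed TPM in the batch differences was not itself tested.

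The interaction of ripening with batch asked if both batches changed alike. No member passed an adjusted p under 0.05, while 2 of 71 sequences (2.82%) did. miR397 had the smallest p of the members, with a ripening change that was 3.16 higher on the log2 scale in the second batch than in the first (SE 1.31, adjusted p = 0.240 by limma). It was the 1 member of 4 at an unadjusted p under 0.05, where 14 of 71 sequences (19.7%) were. The differences were 1.40 for miR398a (adjusted p = 0.762), 1.72 for miR398b (adjusted p = 0.673) and -0.59 for miR408 (adjusted p = 0.775). Over all 71 sequences the median difference was 1.11, with quartiles of 0.17 and 1.71, and all 14 sequences at an unadjusted p under 0.05 had positive differences. Against these quartiles miR398a lay between them, miR398b at the upper quartile, miR397 above it and miR408 below the lower quartile. How far a shift common to the sequences enters the differences of the members was not tested. Without 40DAF of the second batch the difference of miR398b was 4.36 (adjusted p = 0.0475 by limma), and without 30DAF of the second batch it was -0.93 (adjusted p = 0.459).

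No step beyond counting error in both batches went the same way in both. By the sign of the values alone, over the 3 steps between neighbouring stages, 10 of 12 steps of members went the same way in both batches, all 3 steps of miR398b and of miR408 and 2 of 3 steps of miR397 and of miR398a. Over all 71 sequences 101 of 213 steps (47.4%) did, with steps of no difference counted as not the same. Some of these steps rest on few or no reads. Where each batch had more than 3 reads in at least 1 library of the step, 7 of 8 steps of members and 85 of 136 steps of all sequences (62.5%) went the same way. Many steps were within counting error, which 3 of 12 steps in the second batch and 8 of 12 in the first exceeded. At 40DAF against 30DAF, 3 members were lower and miR397 higher in the second batch, and all 4 were lower in the first. At 30DAF against 20DAF, miR398a, miR398b and miR408 were higher and miR397 lower in both batches. The 1 step that was beyond counting error in both batches, that of miR398a from 10DAF to 20DAF, went opposite ways. The steps that were beyond counting error within the first batch moved miR398a and miR408 in the same direction each time, whereas miR397 parted from them from 20DAF to 30DAF.

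Across the 8 libraries, no pair of members was correlated beyond what permuted libraries gave. For miR397 and miR398a, Pearson's r was 0.489 (exact permutation p = 0.223, adjusted p = 0.774) and Spearman's rho 0.491 (exact permutation p = 0.222, adjusted p = 0.842). Without the 2 libraries farthest from the median of miR397, r was 0.277. For miR398a and miR398b, r was 0.241 (exact permutation p = 0.622, adjusted p = 0.946) and rho 0.714 (exact permutation p = 0.0576, adjusted p = 0.633), with r = 0.154 without the 2 libraries farthest from the median of miR398a. For miR397 and miR398b, r was -0.284 (exact permutation p = 0.465, adjusted p = 0.908) and rho 0.0479 (exact permutation p = 0.916, adjusted p = 1), and r was 0.274 without 2 libraries, so the sign rested on them. miR408 falls into separate clusters by batch, so no r over both batches is given for its pairs. Its r with miR397 and with miR398a was higher than those given here but includes the batch difference. The adjusted p values of these pairs by exact permutation were 0.576 and 0.644. Over all 2485 pairs 0% passed an adjusted p under 0.05 and 8.85% an unadjusted one.

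With the mean of each batch removed, the 6 pairs could be set side by side. The highest r was that of miR398a and miR408, 0.552 (exact permutation p = 0.415, adjusted p = 0.843). It was 0.331 for miR398a and miR398b (p = 0.153 by exact permutation, adjusted p = 0.695), 0.261 for miR397 and miR398a (p = 0.684 by exact permutation, adjusted p = 0.954) and 0.200 for miR398b and miR408 (p = 0.205 by exact permutation, adjusted p = 0.712). The pairs of miR397 with miR408 and with miR398b had r of -0.0208 and -0.295 (exact permutation p = 0.958 and 0.372, adjusted p = 1 and 0.811). The median r of the 6 pairs was 0.230, against 0.121 over all 2485 pairs of sequences, and 4 of 6 pairs were positive, against 57.6% of all pairs. Among all pairs 20.0% had an r at least as high as that of miR398a and miR408. No pair of the 2485 passed an adjusted p under 0.05 (0%), which 576 permutations within batches make hard to reach, and 190 (7.65%) had an unadjusted p under 0.05, none of them a pair of members.

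**Figure D4:**
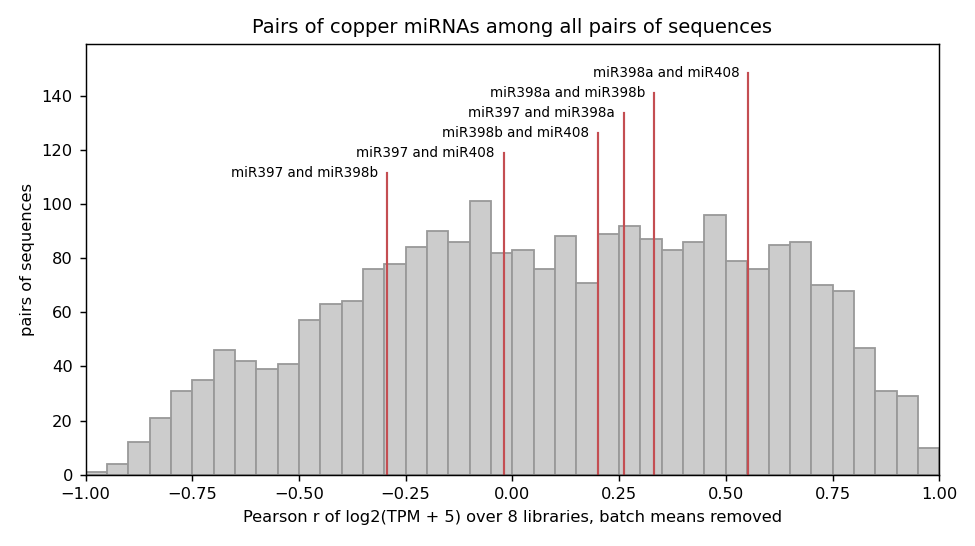
Number of pairs of sequences (bars) by Pearson r of log2(TPM + 5) over the 8 libraries with batch means removed, and the 6 pairs of copper miRNAs (red lines). The pairs of members lie between -0.295 and 0.552, within the bulk of the 2485 pairs.

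For each member the 3 sequences with the most similar pattern were taken by Pearson r over the 8 libraries, among sequences with a mean of at least 10 TPM and more than 3 reads in at least 4 libraries. Ranked in this way over both batches, none of the 12 was another copper miRNA. For miR397 this was fixed in advance, since it had more than 3 reads in only 3 libraries and could not be listed for the other members. miR397 was most like miR172a (r = 0.930), miR167a/b (0.874) and miR396a/c/d (0.868), and with batch means removed these were 0.896, 0.693 and 0.766. miR398a was most like miR160a/b/c (0.698), miR167c (0.673) and miR168 (0.666), which became 0.703, 0.626 and 0.555. miR398b was most like 3 sequences of the miR169 family, miR169g (0.741), miR169i/j/l/m (0.678) and miR169c/d/o (0.654), with 0.747, 0.682 and 0.755 once batch means were removed. miR408 was most like miR172a (0.841), miR395a/d/e/f (0.806) and miR167a/b (0.759), but with batch means removed these were 0.0659, -0.146 and 0.0892. The likeness of miR408 to its neighbours was not seen within batches, where the r of the other members with theirs was 0.555 or higher. With batch means removed, miR408 had an r of 0.552 with miR398a, above its r with each of its 3 listed sequences. The r values of the listed sequences share the same 8 libraries and their totals. The sequences were chosen for the highest r over both batches of 47 or 48 candidates.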

How the data were processed

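The deposited values are TPM. The authors trimmed adapters and low-quality bases, kept reads of small RNA length, removed matches to rRNA and tRNA, matched the rest to plant miRNAs with up to 1 mismatch (Bowtie is named in the submitters' processing notes), and divided each read count by a read total, on a scale common to all libraries. Of 116 names in the table, 27 sequences stand under more than 1 name with the same values, and each of the 71 distinct sequences was used once. The 4 members each stand under a single name, and all 4 match a miRNA gene of RefSeq by a listed synonym. Mature and precursor sequences are those of the study's supplementary tables. An empty extra field in 1 line was dropped. The TPM of 1 read was found from 27 to 39 low values per library, all whole multiples within 0.1 read, and gave the totals used as divisors, which are far below the clean reads of the libraries. The members, lists and tests were chosen with earlier results of these data known.

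Using R 4.3.3, log2(TPM + 5) was fitted by limma 3.58.1 (trended variance) in a single model of the 4 stages, with further fits for batch (stage as covariate) and for the interaction of ripening with batch. The Benjamini-Hochberg adjustment ran over 71 sequences or 2485 pairs. Exact tests were two-sided, and correlations used all 40320 orders of the libraries, or 576 within batches. Exact tests of 4 libraries against 4 shuffled the libraries freely and kept neither stage nor batch fixed. Members were named in every comparison, and for each the 3 most similar sequences. The library number is the sampling batch, and the differences between batches correlated across sequences in 6 of 6 pairs of stages (0.352 to 0.664), so batch was used as a block in an alternative fit. Ratios of 2 libraries have exact conditional intervals at 95%. Other calculations used scipy 1.17.1, pandas 2.3.3 and numpy 2.4.6 under Python 3.11.15. The steps were tested on simulated data. Alternatives were pseudocounts of 1 and 20, a filter at a mean of 10 TPM, other scalings, every name kept, no trend, only the libraries compared, the block, no stage covariate, rank and linear correlations, leaving out each library, and voom on the recovered reads, the last chosen after seeing the data. Where the text gives a limma call of a stage pair, the threshold was an unadjusted p, which is not printed since a stage has 2 libraries. Raw reads and target mRNAs were not analysed here.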

Additional observations from a re-analysis of the deposited data

Results flagged for a closer look

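The 4 members were each looked at in the ripening, early, second-batch and first-batch libraries, 16 groups of 4 libraries in all. A highest or lowest value far from the other 3 was found in 4 groups, and a single value of miR398b was flagged in both its ripening and its second-batch group. The rule flags about 1 in 20 groups of normally distributed replicates. These groups mix stages or batches and share libraries, so that rate does not apply to them. miR398b had 190.34 TPM at 30DAF of the second batch, where the other ripening libraries had at most 14.6 TPM and the other second-batch libraries at most 6.62 TPM. miR398a had 605.92 TPM at 30DAF of the first batch, where the other ripening libraries had at most 57.1 TPM. miR397 had 14.82 TPM at 40DAF of the second batch, where the other second-batch libraries had at most 2.03 TPM, but this value is 2 reads and lies under the floor of 22.2 TPM of its library.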

How the results depend on the processing

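The count of members called between stages was 2 as reported. It was 4 with the replicate block, with median-ratio scaling and with scaling on all families besides miR159, miR319 and miR396. It was 1 with only the libraries of the stages compared, with a pseudocount of 20 and with voom on whole reads. The 4 calls were in each case those reported with miR398a at 40DAF against 10DAF and against 20DAF. The 1 call was miR398a at 40DAF against 10DAF with only the libraries compared and miR398b at 40DAF against 30DAF in the other fits. Leaving out 1 library gave 0 to 4 calls, with 0 without 10DAF or 40DAF of either batch, 1 without 30DAF of the second batch and 4 without 20DAF of the second. In the lost calls of 40DAF against 30DAF, the adjusted p of miR398a by limma was 0.617 with only the libraries compared, 0.583 with a pseudocount of 20 and 0.747 with voom, and that of miR398b was 0.617 with only the libraries compared. Leaving out libraries moved these changes between -5.49 and -2.19 for miR398a and between -4.84 and -1.52 for miR398b.

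The single batch call, miR408, became 0 calls with a pseudocount of 20 (log2 difference -2.51, adjusted p = 0.121 by limma) and with each library left out (0 to 0), while the adjusted p over all its alternatives was 0.0092 to 0.323. The interaction gave 0 to 1 calls with a library left out. Calls for ripening against early stages and correlated pairs were 0 under every alternative run, the block included, and the block changed no call other than those given for the stages.

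Directions that reversed were all of changes not called. For ripening against early stages, miR397 was 0.20 with voom and -2.07 to 0.40 with a library left out, and miR398b -0.16 to 1.50. In the same comparison miR408 was -0.60 when scaled on all families besides miR159, miR319 and miR396 and -0.68 to 1.50 with a library left out. The batch difference of miR398b was -0.0636 with a pseudocount of 1 and -0.64 to 0.77 with a library left out. The interaction ran from -1.62 to 4.42 for miR398a, -0.93 to 4.36 for miR398b and -1.63 to 0.44 for miR408. The correlation of miR397 and miR398b was 0.048 by Spearman's rho and -0.37 to 0.29 with a library left out, and that of miR398a and miR398b was -0.17 on linear values. The cause of these reversals was not tested. Scaling on the other families moved the median of all sequences to -0.57 for ripening against early stages (0.08 as reported) and to -0.25 for 40DAF against 30DAF (-0.06 as reported), and median-ratio scaling moved it to 0.18 for the batches (-0.15 as reported).

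The planned edgeR test was not run, since each library holds too few low values to establish whole reads by the rule used. The read numbers, the counting intervals and the voom fit therefore rest on reads inferred from 27 to 39 low values per library, all whole multiples of 1 read. Few counted reads limit every statement on the second batch at 30DAF and 40DAF, where all members together had 28 and 6 reads. With a library left out, the lone library of its stage is assumed to vary like the other stages.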
